A study of Mus musculus with 46 samples.

Results

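The cytokine gene Tnf, the 5 genes of the NF-kB transcription factor subunits (Nfkb1, Nfkb2, Rel, Rela and Relb) and 4 genes that regulate this pathway or its products (Nfkbia, Nfkbiz, Tnfaip3 and Zfp36) were followed in mouse bone marrow-derived macrophages (BMDM), cells grown into macrophages from bone marrow in culture. The 10 genes were taken by symbol from the 24671 genes of the deposited count table, and all 10 were among the 13838 with enough counts to test. Polyadenylated RNA was sequenced in 46 libraries. There were 5 libraries each with 27-hydroxycholesterol (27HC), an oxysterol that binds liver X receptors (LXR) and estrogen receptors (ER), with GW3965, a synthetic LXR agonist, with GSK2033, an LXR antagonist, with estradiol (E2), with ICI, the ER antagonist fulvestrant, with GSK2033 + 27HC, with ICI + 27HC and with GW3965 plus a second compound, and 6 with Vehicle. The titles name that second compound as 27HC and the other labels name it as ICI, so it is left unnamed. Doses, exposure times and the age, sex and strain of the mice are not in the labels, and no inflammatory stimulus is named for any group.

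NF-kB is a family of paired subunits. Nfkb1 and Nfkb2 encode precursors that are cut to DNA-binding subunits without an activation domain of their own, and Rel, Rela and Relb encode subunits that carry one. In resting macrophages the pairs are held in the cytoplasm by IkB proteins such as the product of Nfkbia; receptor signals lead to destruction of the IkB, and the freed pairs switch on Tnf, chemokine genes and, as feedback, genes of their own inhibitors. Nfkbiz encodes a nuclear IkB that acts with NF-kB at a subset of target genes, among them Il6, and can also dampen others. Tnfaip3 encodes a ubiquitin-editing enzyme that shuts off signalling below the TNF and Toll-like receptors. Zfp36 encodes tristetraprolin, which binds AU-rich stretches in mRNA, that of Tnf above all, and leads to decay of the message. Agonist-bound LXR are known to lower inflammatory gene expression in macrophages. Much of NF-kB control acts on protein stability and location, which RNA counts do not measure.

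Library totals ran from 19354093 to 30921038 estimated counts, and the 10 genes had from 275 estimated counts (Nfkbiz) to 5697 (Nfkbia) in single libraries. All 12 macrophage markers examined were detected. Their summed level was 10100 to 10700 CPM with GW3965 plus the second compound, where it was lowest, and 23000 to 24600 CPM with E2, against 21900 to 24000 CPM with Vehicle; in the other 6 treatments it also lay below the Vehicle range. Stromal markers summed to 2720 to 5050 CPM with all 9 detected, while neutrophil, dendritic and erythroid markers summed to at most 3.32, 2.18 and 0.392 CPM, and lymphocyte markers to at most 33.3 CPM. The part of these marker shifts in the results below was not tested. The labels do not tie replicates to different mice or culture dishes, so p-values measure the spread between these libraries, which may be technical. As in any bulk sample, fewer cells of a type and less RNA per cell cannot be told apart.

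The start-site windows of 5 members are shown because most of these genes are themselves described as NF-kB targets. They are windows of the 4 genes with a match described below, and that of Tnf, which had none. The windows of Rela and Zfp36, also without a match, are not shown. Any tie between these sequences and the differences in level was not tested. RefSeq windows of 250 bases before to 50 after a start site (GRCm38.p6) were at hand for 7 of the 10 genes, in 10 entries, and not for Nfkb1, Relb and Nfkbiz. Each is given 5′ to 3′ on the gene's own strand, and capitals mark matches to the kappa B consensus, the sequence bound by NF-kB, on either strand. The Nfkb2 window is chr19:46304487-46304786 on the plus strand. Those of Rel (chr11:23770920-23771219), Nfkbia (chr12:55492598-55492897), Tnfaip3 (chr10:19015361-19015660) and Tnf (chr17:35201958-35202257) are on the minus strand.
Nfkb2: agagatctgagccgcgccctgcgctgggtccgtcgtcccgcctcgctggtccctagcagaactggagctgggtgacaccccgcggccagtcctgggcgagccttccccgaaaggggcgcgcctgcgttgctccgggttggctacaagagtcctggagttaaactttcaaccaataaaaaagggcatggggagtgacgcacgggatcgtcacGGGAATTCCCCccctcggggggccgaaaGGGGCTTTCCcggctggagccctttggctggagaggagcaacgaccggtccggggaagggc
Rel: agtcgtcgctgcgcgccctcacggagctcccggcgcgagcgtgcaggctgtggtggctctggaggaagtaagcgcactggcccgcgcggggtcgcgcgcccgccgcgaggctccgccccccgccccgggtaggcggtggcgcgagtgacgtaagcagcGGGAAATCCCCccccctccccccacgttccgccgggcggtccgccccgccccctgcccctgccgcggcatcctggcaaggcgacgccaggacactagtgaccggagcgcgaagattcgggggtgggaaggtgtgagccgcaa
Nfkbia: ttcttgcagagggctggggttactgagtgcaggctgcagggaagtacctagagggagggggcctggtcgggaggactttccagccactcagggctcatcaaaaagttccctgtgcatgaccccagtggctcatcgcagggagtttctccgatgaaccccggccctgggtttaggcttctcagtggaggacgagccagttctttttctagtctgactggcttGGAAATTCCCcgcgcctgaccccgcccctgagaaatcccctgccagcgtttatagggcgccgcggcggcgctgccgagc
Tnfaip3: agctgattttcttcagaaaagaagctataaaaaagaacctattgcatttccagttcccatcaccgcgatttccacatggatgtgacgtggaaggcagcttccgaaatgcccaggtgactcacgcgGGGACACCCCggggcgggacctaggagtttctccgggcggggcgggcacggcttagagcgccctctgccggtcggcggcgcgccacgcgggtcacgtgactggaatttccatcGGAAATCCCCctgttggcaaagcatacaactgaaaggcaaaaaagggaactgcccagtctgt
Tnf: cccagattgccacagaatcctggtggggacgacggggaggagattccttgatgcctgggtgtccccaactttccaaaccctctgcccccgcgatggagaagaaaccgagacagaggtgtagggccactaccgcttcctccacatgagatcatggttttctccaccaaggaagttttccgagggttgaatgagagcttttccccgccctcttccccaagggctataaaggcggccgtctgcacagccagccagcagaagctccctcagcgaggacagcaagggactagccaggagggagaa
A kappa B match was found in 6 of the 10 member entries, those of 4 genes (Nfkb2 in all 3 of its entries, Rel, Nfkbia and Tnfaip3), against 4.51% of 32851 mouse entries of the same length. The 2 Nfkb2 windows not shown (chr19:46305445-46305744 and chr19:46305680-46305979) overlap and share a GGGACTTTCC site, so these entries are not separate finds. The members were chosen as NF-kB pathway genes, so their share of matches is descriptive only. Some of these matches overlap each other within a window, read on both strands, at a palindrome in Nfkb2 and a near-palindrome in Rel. The other windows, of Tnf, Rela and Zfp36 and the second of Tnfaip3, held no match, which says only that these letters are not in these 300 bases. The TATA box letters TATAAA stand 29 bases before the Tnf start site, and were found in the windows of 3 members and in 13.6% of all entries. Their place differed in the other members: 19 bases after the start site on the opposite strand in Nfkbia, and 225 bases before it in Tnfaip3. AP-1 letters (TGANTCA) were in the windows of 2 members, Nfkb2 and Tnfaip3, and in 7.81% of all entries. The letters AGGTCA, a single copy of the repeat that LXR bind in pairs, were in 0 of the 10 member entries and in 16.3% of all entries. The paired LXR site, the estrogen response element and the cAMP response element, each searched as its full consensus, were likewise in 0 of the 10, and in 0.0152%, 0.07% and 1.79% of all entries. All motifs were searched on both strands.

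The AU-rich stretch of the Tnf message is shown because it is the sequence through which tristetraprolin is known to act. Bases 1310 to 1339 of the 1639 bases of the transcript Tnf-201 (GENCODE M21, from chromosome 17 of GRCm38) hold 4 overlapping copies of the nonamer TTATTTATT, in capitals here, with T standing for the U of the RNA.
Tnf: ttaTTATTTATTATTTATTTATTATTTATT
The whole transcript held 5 copies. At least 1 transcript of Rel, Nfkbia, Tnfaip3 and Zfp36 itself held 1 copy, and the annotated transcripts of Nfkb1, Nfkb2, Rela, Relb and Nfkbiz held none. Of 21877 protein-coding genes, 8.71% had at least 1 copy and 50, Tnf included, had at least as many as Tnf; transcripts differ in length, so longer ones have more chances to hold a copy.

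Across the 8 treatments, Nfkbiz moved furthest, Tnfaip3 was called higher in 7 treatments and lower in none, and Rela had the narrowest range of group means. A gene is called here where the Benjamini-Hochberg adjusted p of edgeR's quasi-likelihood test, adjusted over all genes tested, is below 0.05, and a difference is a log2 fold change with its standard error. The share of all genes tested is given beside each count. It includes genes with few counts, where small differences are harder to call, while the 10 members had at least 275 estimated counts in every library. With 27HC, 8 of the 10 genes were called, against 40.3% of all genes tested: 3 rose (Tnf, Tnfaip3 and Zfp36) and 5 fell, against 20.3% and 20%. With GW3965, 8 were called, against 44.2%: 1 rose (Tnfaip3) and 7 fell, against 23.1% and 21.1%. GSK2033 gave 6 calls, against 36.3%: 5 genes rose (Tnf, Nfkb2, Relb, Nfkbia and Tnfaip3) and 1 fell (Rel), against 18.4% and 17.9%. With E2, 1 gene fell (Zfp36) and 9 were not called, where 4.7% of all genes were called, 2.2% higher and 2.49% lower. ICI gave 7 calls, against 26.4%: 2 higher (Tnf and Tnfaip3) and 5 lower, against 13.9% and 12.5%.

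For the combinations, GSK2033 + 27HC gave 7 calls, against 50.4% of all genes tested: 3 higher (Tnf, Nfkbia and Tnfaip3) and 4 lower (Nfkb1, Rel, Nfkbiz and Zfp36), against 24.1% and 26.4%. ICI + 27HC gave 9 calls, against 53%: 2 higher (Tnf and Tnfaip3) and 7 lower, against 26.6% and 26.4%. With GW3965 plus the second compound all 10 were called, against 49.5%: 1 rose (Tnfaip3) and 9 fell, against 25.2% and 24.4%. The median difference over the 10 genes ran from -0.38 with GW3965 plus the second compound to 0.15 with GSK2033, while the median over all genes tested lay within -0.01 to 0.01 in every comparison. All 8 treatments are set against the same 6 Vehicle libraries.

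**Figure D1:**
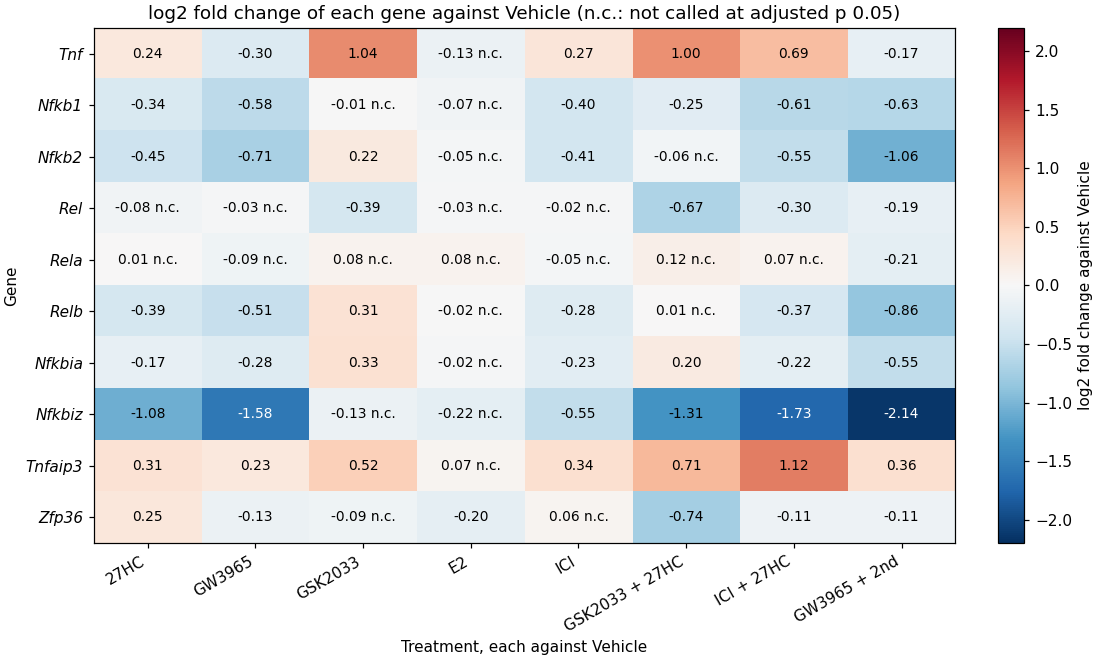
Log2 fold change of each of the 10 genes (rows) in each of the 8 treatments (columns) against Vehicle; red is higher than Vehicle, blue is lower, and n.c. marks a difference that was not called at an adjusted p of 0.05. Nfkbiz has the strongest blue (-2.14 with GW3965 plus the second compound), and the strongest red values are those of Tnfaip3 with ICI + 27HC (1.12) and of Tnf in both GSK2033 groups.

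The level of Tnf (chr17:35199381-35202007, minus strand, GRCm38, as for the genes below) was highest in the groups given the LXR antagonist. With GSK2033 the libraries had 6.32, 6.28, 6.36, 6.24 and 6.14 log2 CPM, with GSK2033 + 27HC they had 6.27, 6.28, 6.21, 6.16 and 6.20, and with Vehicle the lowest, median and highest of 6 were 5.09, 5.17 and 5.44. Every library of both antagonist groups lay above every Vehicle library, and the antagonist groups overlapped each other. The difference from Vehicle was 1.04 ± 0.065 with GSK2033 (2.06-fold, edgeR adjusted p = 9.3e-18) and 1.00 ± 0.065 with GSK2033 + 27HC (2-fold, edgeR adjusted p = 1.12e-17). Mitochondrially encoded transcripts were lowest in the antagonist groups and highest with GW3965, at 1.37% ± 0.096 (SD, n = 5) of counts with GSK2033, 1.34% ± 0.11 (SD, n = 5) with GSK2033 + 27HC, 2.17% ± 0.12 (SD, n = 5) with GW3965, 1.98% ± 0.14 (SD, n = 5) with ICI and 1.9% ± 0.098 (SD, n = 5) with 27HC, against 1.6% ± 0.1 (SD, n = 6) with Vehicle; with those genes removed before scaling, the Tnf differences were 1.04 with GSK2033, 1.01 with GSK2033 + 27HC and -0.31 with GW3965.

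ICI + 27HC came next, with 5.99, 5.91, 6.01, 5.79 and 5.85 log2 CPM, above all libraries of 27HC (5.52, 5.49, 5.49, 5.48 and 5.33) and of ICI (5.50, 5.51, 5.50, 5.47 and 5.47). Its difference from Vehicle was 0.69 ± 0.066 (edgeR adjusted p = 2.17e-12). Tnf was also higher with each single compound, with 27HC by 0.24 ± 0.067 (edgeR adjusted p = 0.00343) and with ICI by 0.27 ± 0.067 (edgeR adjusted p = 0.0019). The ICI libraries lay above all Vehicle libraries and the 27HC libraries overlapped them. In CPM, Tnf averaged 60.1 ± 3.98 with ICI + 27HC, 44 ± 2.28 with 27HC and 44.9 ± 0.612 with ICI (SD, n = 5 each), against 37.4 ± 3.79 with Vehicle (SD, n = 6).

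At the low end, GW3965 libraries had 5.01, 4.97, 4.90, 4.76 and 5.01 log2 CPM, all below the Vehicle libraries, a difference of -0.30 ± 0.069 (edgeR adjusted p = 0.000339). The libraries with GW3965 plus the second compound had 5.05, 4.97, 5.29, 4.96 and 4.99, with 4 below the lowest Vehicle library and 1 among the Vehicle libraries. Their difference was -0.17 ± 0.068 (edgeR adjusted p = 0.032), and the call was lost in 6 of 11 fits that left out a library: without Vehicle replicate 1 or 3 or combination replicate 1, 2, 4 or 5, where it was -0.13 to -0.17. It was also not called in the fit to these groups alone. E2 libraries ran from 4.82 to 5.36, the widest range of Tnf in any group, with a difference of -0.13 ± 0.068 that was not called (95% interval -0.27 to 0.00). In order of mean level, only the gaps between GSK2033 + 27HC and ICI + 27HC and between ICI + 27HC and ICI held no overlapping libraries.

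**Figure D2:**
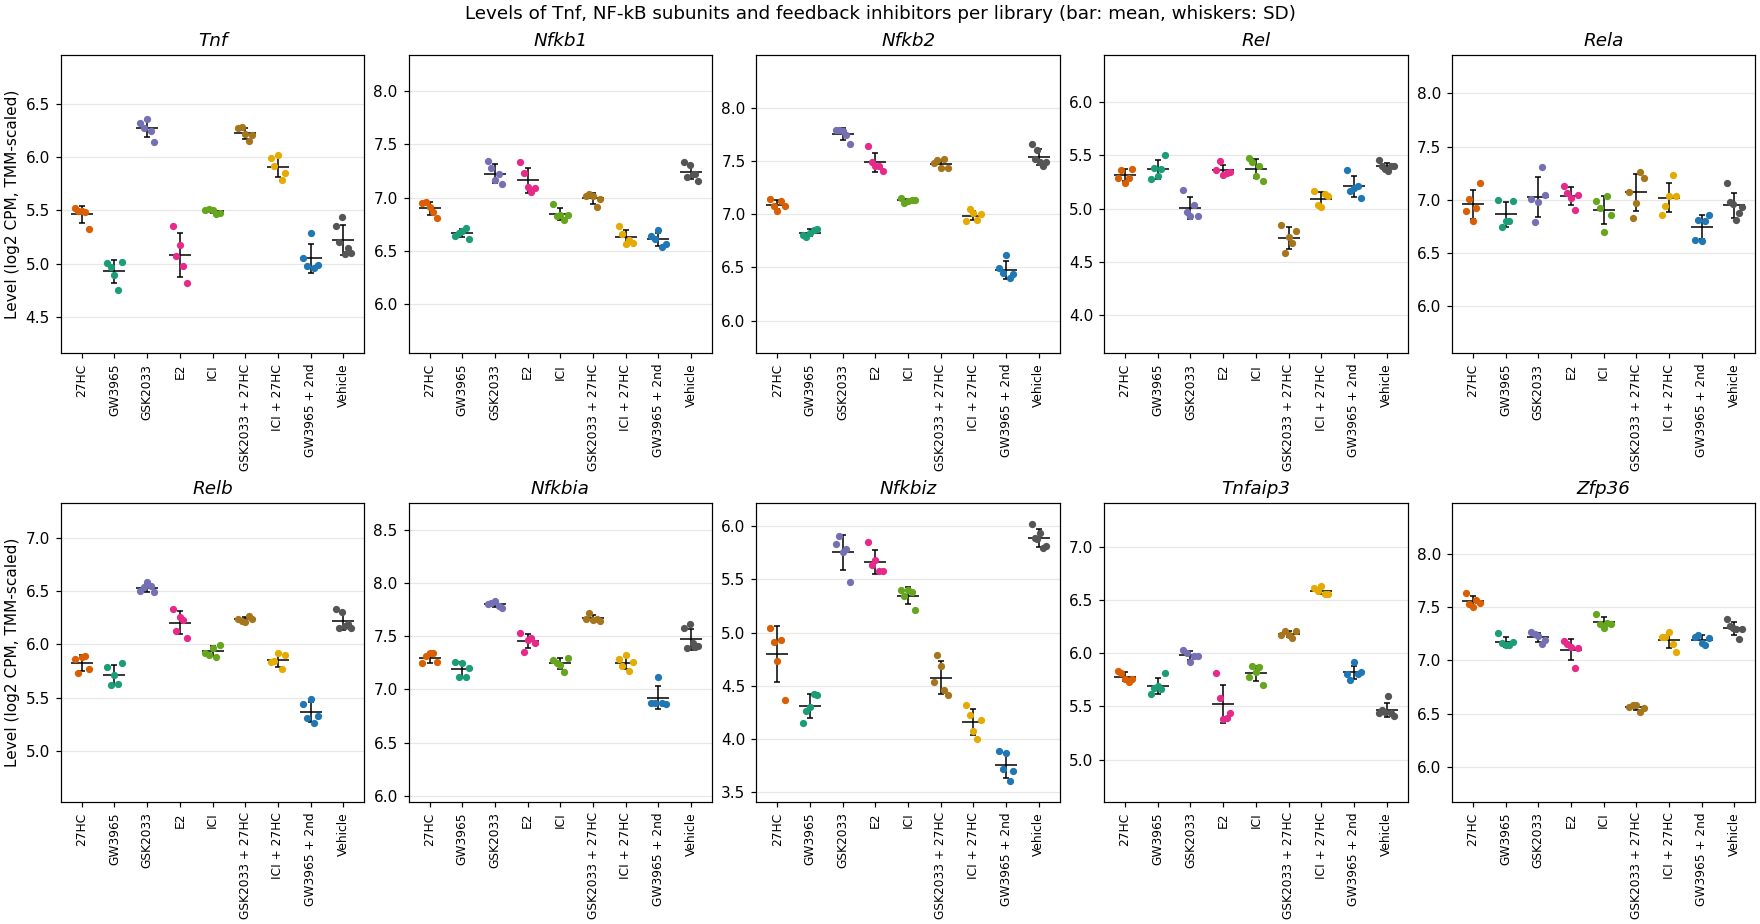
Level of each gene in each library (log2 CPM, TMM-scaled; each panel spans the same number of log2 units), by group with Vehicle at the right; points are libraries, bars are means and whiskers are SD. Tnf stands apart in the groups GSK2033, GSK2033 + 27HC and ICI + 27HC, Nfkbiz is lowest with GW3965 plus the second compound, and the Rela points of neighbouring groups overlap throughout.

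Among the subunit genes, Nfkb1, Nfkb2 and Relb were lower with 27HC, GW3965 and ICI and in the combinations of GW3965 and of ICI, and E2 left all 3 uncalled. Nfkb2 (chr19:46304320-46312385, plus strand), which encodes the precursor of the non-canonical pathway, varied most. Its libraries had 6.50, 6.44, 6.62, 6.40 and 6.44 log2 CPM with GW3965 plus the second compound, 6.81, 6.79, 6.82, 6.85 and 6.87 with GW3965 alone, and 7.45, 7.51 and 7.66 as lowest, median and highest with Vehicle. These 3 groups did not overlap. The differences were -1.06 ± 0.037 (2.08-fold lower, edgeR adjusted p = 1.01e-27) and -0.71 ± 0.037 (edgeR adjusted p = 2.71e-21). It also fell with 27HC, ICI and ICI + 27HC, with differences of -0.45, -0.41 and -0.55 and no overlap. GSK2033 went the other way, at 0.22 ± 0.036 (edgeR adjusted p = 2.62e-06), with 1 library overlapping Vehicle, and GSK2033 + 27HC was not called at -0.06 ± 0.036. In order of mean level, neighbouring groups were apart between GSK2033 + 27HC and ICI, between ICI + 27HC and GW3965 and between GW3965 and its combination.

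Relb (chr7:19606217-19629438, minus strand), whose product pairs with that of Nfkb2, had its lowest levels in the same group. Libraries with GW3965 plus the second compound had 5.44, 5.31, 5.49, 5.26 and 5.33 log2 CPM, against 6.15, 6.18 and 6.34 as lowest, median and highest with Vehicle. No library overlapped, and the difference was -0.86 ± 0.046 (edgeR adjusted p = 7.13e-21). GW3965 alone gave -0.51 ± 0.045, 27HC -0.39 ± 0.045, ICI -0.28 ± 0.044 and ICI + 27HC -0.37 ± 0.045, each with all libraries below Vehicle. Relb rose with GSK2033, where libraries had 6.50, 6.54, 6.59, 6.54 and 6.49 log2 CPM, all above Vehicle, a difference of 0.31 ± 0.044 (edgeR adjusted p = 9.65e-08). With GSK2033 + 27HC it was at 0.01 ± 0.044, not called, with a 95% interval of -0.07 to 0.10. Neighbours in the order of levels were apart between GSK2033 and GSK2033 + 27HC, between E2 and ICI and between GW3965 and its combination.

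Nfkb1 (chr3:135584655-135691547, minus strand), whose product is the partner of Rela in the most common NF-kB pair, was highest with Vehicle and was called in 6 treatments, each lower. Libraries ran from 6.54 to 6.70 log2 CPM with GW3965 plus the second compound and from 6.57 to 6.74 with ICI + 27HC, against 7.16 to 7.34 with Vehicle. Neither range reached that of Vehicle. Those differences were -0.63 ± 0.043 (edgeR adjusted p = 3.33e-17) and -0.61 ± 0.043 (edgeR adjusted p = 8.57e-17). GW3965 gave -0.58, ICI -0.40, 27HC -0.34 and GSK2033 + 27HC -0.25, all called. GSK2033 alone gave -0.01 ± 0.042, not called (95% interval -0.10 to 0.07), where Nfkb2 and Relb rose. In the order of its levels, Vehicle, GSK2033 and E2 stood together above GSK2033 + 27HC, and a second gap lay between ICI and GW3965.

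Rel (chr11:23736847-23770970, minus strand), which encodes the subunit c-Rel, had its lowest levels in the GSK2033 groups. Libraries with GSK2033 + 27HC had 4.85, 4.58, 4.73, 4.68 and 4.79 log2 CPM, those with GSK2033 had 5.18, 4.97, 4.93, 5.03 and 4.93, and those with Vehicle had 5.35, 5.40 and 5.46 as lowest, median and highest. All 10 antagonist libraries lay below Vehicle, and the antagonist groups did not overlap each other. The differences were -0.67 ± 0.05 (edgeR adjusted p = 7.82e-16) and -0.39 ± 0.049 (edgeR adjusted p = 1.23e-08). It also fell with ICI + 27HC (-0.30) and, with overlapping libraries, with GW3965 plus the second compound (-0.19). GW3965, 27HC, ICI and E2 were not called, with differences of -0.03, -0.08, -0.02 and -0.03.

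Rela (chr19:5637483-5648130, plus strand), which encodes the main activating subunit, had group means of 6.74 to 7.07 log2 CPM, and its pooled SD within groups, 0.136, was the second largest of the 10 after that of Nfkbiz, 0.143. Neighbouring groups in the order of levels overlapped throughout. GW3965 plus the second compound was called lower, with libraries at 6.63, 6.81, 6.61, 6.80 and 6.86 log2 CPM against 6.81, 6.95 and 7.16 as lowest, median and highest with Vehicle. These libraries overlapped, and the difference of -0.21 ± 0.08 (edgeR adjusted p = 0.027) was no longer called without Vehicle replicate 1 (-0.16) or without combination replicate 1 or 3 (-0.18 in each fit). The other 7 differences lay between -0.09 and 0.12, and their 95% intervals reached no lower than -0.25 and no higher than 0.28; GSK2033 + 27HC was called without combination replicate 2 (0.19).

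Of the regulator genes, Nfkbia (chr12:55489410-55492647, minus strand) was called in the same direction as Relb in 6 treatments. Its product, IkB alpha, holds NF-kB in the cytoplasm and is remade as part of the response. Libraries had 7.81, 7.81, 7.83, 7.79 and 7.76 log2 CPM with GSK2033 and 7.66, 7.72, 7.66, 7.66 and 7.65 with GSK2033 + 27HC, against 7.39, 7.42 and 7.62 as lowest, median and highest with Vehicle. All lay above Vehicle, by 0.33 ± 0.04 (edgeR adjusted p = 4.44e-09) and 0.20 ± 0.04 (edgeR adjusted p = 5.65e-05). With GW3965 plus the second compound they had 6.88, 6.88, 7.11, 6.87 and 6.87, all below Vehicle, at a difference of -0.55 ± 0.041 (edgeR adjusted p = 8.73e-16). GW3965, ICI, ICI + 27HC and 27HC also gave all libraries below Vehicle, with differences of -0.28, -0.23, -0.22 and -0.17. Neighbours in the order of levels were apart between GSK2033 and GSK2033 + 27HC, between that group and Vehicle, between E2 and 27HC, and between GW3965 and its combination.

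Nfkbiz (chr16:55811375-55838899, minus strand), the nuclear IkB gene, spanned 2.14 log2 units between its highest and lowest group means, the widest span of the 10. Libraries with GW3965 plus the second compound had 3.88, 3.72, 3.87, 3.60 and 3.70 log2 CPM, those with ICI + 27HC 4.32, 4.22, 4.07, 4.00 and 4.18, and those with Vehicle 5.80, 5.88 and 6.02 as lowest, median and highest. The differences were -2.14 ± 0.087 (4.41-fold lower, edgeR adjusted p = 4.26e-25) and -1.73 ± 0.085 (3.32-fold lower, edgeR adjusted p = 4.65e-22). It was also lower with GW3965 alone (-1.58), GSK2033 + 27HC (-1.31), 27HC (-1.08) and ICI (-0.55), each with all libraries below Vehicle. Neighbours in the order of levels were apart between E2 and ICI, between ICI and 27HC, and between ICI + 27HC and GW3965 plus the second compound. In CPM it averaged 13.4 ± 1.12 with GW3965 plus the second compound and 28.1 ± 4.75 with 27HC (SD, n = 5 each), against 59.3 ± 3.4 with Vehicle (SD, n = 6).

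GSK2033 alone left Nfkbiz uncalled, with libraries at 5.83, 5.91, 5.76, 5.79 and 5.48 log2 CPM and a difference of -0.13 ± 0.078 (95% interval -0.29 to 0.03). The 27HC libraries spread widely, at 5.04, 4.91, 4.73, 4.93 and 4.37 log2 CPM, and replicate 5 was the lowest, as it was for Tnf. E2 gave -0.22 ± 0.078, which was not called (edgeR adjusted p = 0.101); a fit to these groups alone gave -0.22 with an adjusted p of 0.0327 in edgeR, and a fit without E2 replicate 1 gave -0.27 with 0.0425. The summed level of macrophage markers, most of it from a few abundant genes, was lowest in the group where Nfkbiz was lowest (10100 to 10700 CPM with GW3965 plus the second compound, against 21900 to 24000 CPM with Vehicle). By single genes, 8 of the 12 fell and 3 rose there (median -0.90), against 24.4% and 25.2% of all genes tested. With ICI + 27HC 10 fell and 2 rose (median -1.07), against 26.4% and 26.6%. With GSK2033, where Nfkbiz was not called, 8 fell and 1 rose (median -0.33, sum of 17400 to 18600 CPM), against 17.9% and 18.4%. Nfkb1, Nfkb2, Rela, Relb and Nfkbia also had their lowest mean with GW3965 plus the second compound. The markers' part in these differences was not tested.

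Tnfaip3 (chr10:19000910-19015657, minus strand), the ubiquitin-editing inhibitor gene, was lowest with Vehicle and called higher in every treatment but E2. With ICI + 27HC the libraries had 6.61, 6.59, 6.63, 6.56 and 6.55 log2 CPM, with GSK2033 + 27HC 6.17, 6.21, 6.17, 6.14 and 6.21, and with Vehicle 5.41, 5.44 and 5.59 as lowest, median and highest. These groups did not overlap. The differences were 1.12 ± 0.047 (2.18-fold, edgeR adjusted p = 1.09e-24) and 0.71 ± 0.048 (edgeR adjusted p = 2.2e-17). GSK2033 gave 0.52, GW3965 plus the second compound 0.36, ICI 0.34, 27HC 0.31 and GW3965 0.23, each with all libraries above Vehicle. Tnfaip3 was thus higher both where Tnf was higher and, with GW3965, where Tnf was lower. In E2 the libraries had 5.81, 5.58, 5.39, 5.39 and 5.44 log2 CPM, with replicate 1 well above the rest, and the difference of 0.07 ± 0.049 was not called.

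Zfp36 (chr7:28376784-28380253, minus strand), the tristetraprolin gene, was lowest with GSK2033 + 27HC and highest with 27HC. With GSK2033 + 27HC the libraries had 6.56, 6.58, 6.58, 6.51 and 6.56 log2 CPM, with 27HC 7.63, 7.53, 7.50, 7.57 and 7.54, and with Vehicle 7.20, 7.30 and 7.39 as lowest, median and highest. Neither treatment overlapped Vehicle. The difference of GSK2033 + 27HC from Vehicle was -0.74 ± 0.036 (1.68-fold lower, edgeR adjusted p = 1.94e-22), and that of 27HC was 0.25 ± 0.035 (edgeR adjusted p = 4.53e-08). E2 gave -0.20 ± 0.035, the 1 member called with E2 (edgeR adjusted p = 8.35e-05), with libraries at 7.18, 7.15, 7.12, 6.93 and 7.12 log2 CPM, all below Vehicle. GW3965, ICI + 27HC and GW3965 plus the second compound gave -0.13, -0.11 and -0.11, called with overlapping libraries. GSK2033 alone, at -0.09 ± 0.035, lay at the threshold (edgeR adjusted p = 0.0501, against 0.0483 when genes with a mean below 1 CPM were left out), and it was called without Vehicle replicate 5 (-0.11) or GSK2033 replicate 1 (-0.1). In the order of its levels, 27HC stood above ICI and E2 above GSK2033 + 27HC with no overlap, and all other neighbours overlapped.

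Because tristetraprolin acts on the Tnf message, the level of Tnf minus that of Zfp36 was taken within each library; this measure was chosen after their values were seen and is given with no test, and as the genes differ in length only its change between groups can be read. It was -0.34 ± 0.035 log2 with GSK2033 + 27HC, -0.95 ± 0.068 with GSK2033 and -1.28 ± 0.06 with ICI + 27HC (SD, n = 5 each), against -2.08 ± 0.13 with Vehicle (SD, n = 6). Libraries of these 3 treatments all lay above the highest Vehicle library, -1.87. With GSK2033 and ICI + 27HC most of the shift was that of Tnf (1.04 and 0.69 from Vehicle). Zfp36 differed there by -0.09, not called, and -0.11. With GSK2033 + 27HC both genes had a large part, Tnf at 1.00 and Zfp36 at -0.74. ICI averaged -1.86 ± 0.053, E2 -2.02 ± 0.18, 27HC -2.09 ± 0.079, GW3965 plus the second compound -2.14 ± 0.15 and GW3965 -2.25 ± 0.085 (SD, n = 5 each), all with libraries that overlapped Vehicle. With 27HC both genes were higher by a like amount, and the measure shifted by -0.01 from Vehicle.

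**Figure D3:**
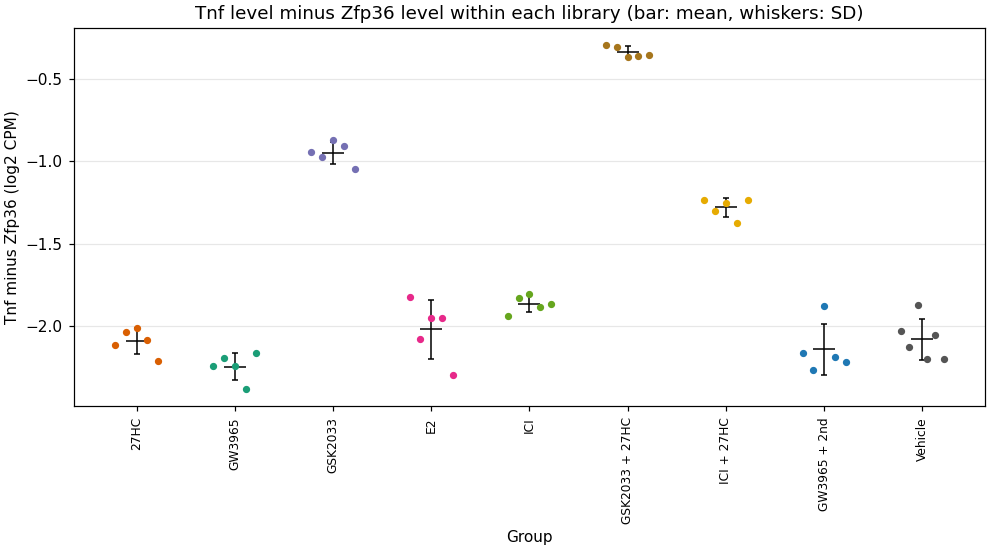
Tnf level minus Zfp36 level within each library (log2 CPM, vertical axis) by group, with Vehicle at the right; points are libraries, bars are means and whiskers are SD. GSK2033 + 27HC stands highest at -0.34, followed by GSK2033 at -0.95 and ICI + 27HC at -1.28, with Vehicle at -2.08.

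With both LXR agonists Tnfaip3 rose and the same 5 genes fell, Nfkb1, Nfkb2, Relb, Nfkbia and Nfkbiz, and a direct comparison of 27HC with GW3965 gave 6 members higher with 27HC and 4 not called, where 25.3% of all genes tested were called, 12.8% higher and 12.5% lower. Tnf was higher with 27HC by 0.54 ± 0.071 (edgeR adjusted p = 4.32e-08), with no overlap (5.52, 5.49, 5.49, 5.48 and 5.33 log2 CPM with 27HC, against 5.01, 4.97, 4.90, 4.76 and 5.01 with GW3965). Nfkbiz was higher by 0.50 ± 0.089 with overlapping libraries, Zfp36 by 0.38 ± 0.036, Nfkb2 by 0.26 ± 0.038 and Nfkb1 by 0.24 ± 0.045. Nfkbia, at 0.11 ± 0.042 (edgeR adjusted p = 0.0498), lost its call in 5 fits without 1 library, those without 27HC replicate 2, 3 or 4 or GW3965 replicate 2 or 4 (0.1 to 0.12). Relb (0.11, 95% interval 0.02 to 0.21), Tnfaip3 (0.09, -0.02 to 0.19), Rela and Rel were not called; Relb was called without 27HC replicate 2 or 5 or GW3965 replicate 1 or 5, at 0.14 to 0.16.

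Adding the second compound to GW3965 gave 5 members lower and left 5 not called, where 17.5% of all genes tested were called, 7.93% higher and 9.56% lower. Relative to GW3965 alone, Nfkbiz was at -0.56 ± 0.093 (edgeR adjusted p = 9.95e-06), Relb at -0.35 ± 0.048, Nfkb2 at -0.35 ± 0.039 and Nfkbia at -0.27 ± 0.043, each with no overlapping library. Rel, at -0.16 ± 0.051 (edgeR adjusted p = 0.021), was not called without GW3965 replicate 5 or combination replicate 2 or 5 (-0.12 to -0.15), with no filter on low counts, or in the fit to these groups alone. Tnf, at 0.13 ± 0.072, was not called. Tnfaip3, at 0.13 ± 0.05, was called without GW3965 replicate 5 (0.16) or combination replicate 2 (0.15).

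E2 and fulvestrant are 1 structurally related pair: fulvestrant keeps the steroid core of estradiol and carries a long side chain on it. Their doses and times are not in the labels, so whether these match is not known. The comparison of E2 with ICI gave 8 calls among the 10, against 27.5% of all genes tested: 5 members were higher and 3 lower with E2, against 13.1% and 14.4%. Tnf was lower with E2, at -0.40 ± 0.07 (edgeR adjusted p = 1.3e-05), with libraries at 5.36, 5.07, 5.17, 4.98 and 4.82 log2 CPM with E2, against 5.50, 5.51, 5.50, 5.47 and 5.47 with ICI, and no overlap. Tnfaip3 (-0.28 ± 0.05) and Zfp36 (-0.25 ± 0.036) were also lower with E2. Nfkb2 (0.36 ± 0.038), Nfkb1 (0.32 ± 0.044), Nfkbiz (0.32 ± 0.082), Relb (0.27 ± 0.046) and Nfkbia (0.21 ± 0.042) were higher with E2, with no overlapping libraries. Rel (-0.01, 95% interval -0.12 to 0.09) and Rela (0.13, -0.04 to 0.30) were not called. Against Vehicle, 7 members were called with ICI and 1 with E2, where 26.4% and 4.7% of all genes tested were called.

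The combinations ask how the 27HC response stands when an LXR or ER antagonist is present. How far either receptor was blocked was not tested. Adding GSK2033 to 27HC raised 5 members (Tnf, Nfkb2, Relb, Nfkbia and Tnfaip3) and lowered 3 (Rel, Nfkbiz and Zfp36) relative to 27HC alone, against 21.1% and 21.7% of all genes tested (42.8% in either direction). Zfp36 was lower, at -0.997 ± 0.037 (edgeR adjusted p = 2.42e-26), as was Rel, at -0.59 ± 0.052, and Tnf was higher by 0.76 ± 0.068 (edgeR adjusted p = 4.38e-13). Nfkb2, Relb and Nfkbia were higher by 0.39, 0.41 and 0.37. Nfkbiz, at -0.23 ± 0.087, overlapped and lost its call in 6 fits without 1 library (27HC replicate 1, 2 or 4, or combination replicate 1, 4 or 5, -0.17 to -0.21), in the fit to these groups alone (-0.23), and with no filter on low counts (-0.22).

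Read the other way, 27HC added to GSK2033 lowered 7 members and raised 1 (Tnfaip3), against 18.8% and 17.1% of all genes tested (35.8% in either direction). The differences from GSK2033 alone were -1.18 ± 0.085 for Nfkbiz (edgeR adjusted p = 9.82e-16) and, for Zfp36, -0.66 ± 0.037 (edgeR adjusted p = 1.58e-19), both with no overlap. The fall of Nfkbiz with 27HC was thus present with the antagonist (-1.18) and without it (-1.08), and the test of that difference was not called (-0.10 ± 0.12, 95% interval -0.34 to 0.14). Relb, Rel, Nfkb2, Nfkb1 and Nfkbia also fell, with differences of -0.30, -0.28, -0.28, -0.23 and -0.13; with no filter on low counts Nfkbia was not called (adjusted p = 0.0501 in edgeR). Tnf did not pass the test, at -0.05 ± 0.066 (95% interval -0.18 to 0.09).

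With ICI in place of GSK2033, ICI + 27HC against 27HC gave 2 members higher (Tnf and Tnfaip3) and 5 lower, where 16.8% and 17.4% of all genes tested were called (34.1% in all). ICI + 27HC against ICI alone gave 2 higher (the same genes) and 5 lower, where 19.7% and 20.7% were called (40.4% in all). Tnfaip3 was higher by 0.81 ± 0.049 against 27HC (edgeR adjusted p = 3.34e-18) and by 0.78 ± 0.049 against ICI (edgeR adjusted p = 5.49e-18), with no overlap in either. Tnf was higher by 0.45 ± 0.068 and 0.42 ± 0.068. Against 27HC, Nfkbiz (-0.65), Zfp36 (-0.36), Nfkb1 (-0.28) and Rel (-0.22) fell. Against ICI alone, Nfkbiz (-1.19), Rel (-0.28), Nfkb1 (-0.22), Zfp36 (-0.17) and Nfkb2 (-0.14) fell. Against 27HC, Nfkb2, at -0.10 ± 0.038, was not called without 27HC replicate 1 or 4 or combination replicate 1 or 4 (-0.09 in each fit), or with no filter on low counts.

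The interaction asks whether 27HC moved a gene by a different amount in the presence of the antagonist than alone; 0 on the log2 scale means that the separate differences add up. With GSK2033 it was called for 1 member above 0 and 3 below, against 9.34% and 10.3% of all genes tested (19.6% in all). Zfp36 had the largest, -0.91 ± 0.051 (edgeR adjusted p = 9.39e-19): 27HC moved it by 0.25 alone and by -0.66 in the presence of GSK2033. Nfkb2 had 0.17 ± 0.052 (edgeR adjusted p = 0.0157). Tnf, at -0.28 ± 0.094 (edgeR adjusted p = 0.0265), was not called without Vehicle replicate 6, GSK2033 replicate 3 or combination replicate 3, 4 or 5 (-0.25 to -0.27). Rel, at -0.20 ± 0.071 (edgeR adjusted p = 0.0395), was not called in 9 of 21 fits without 1 library (Vehicle replicate 3 or 4, 27HC replicate 2 or 5, GSK2033 replicate 1 or 4, or combination replicate 2, 3 or 4, -0.15 to -0.2). With no filter on low counts neither Tnf (-0.27) nor Rel (-0.19) was called.

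With ICI the interaction was called for 4 members above 0 and 2 below, against 7.39% and 9.97% of all genes tested (17.4% in all). Tnfaip3 had 0.47 ± 0.069 (edgeR adjusted p = 1.01e-06): its combination libraries all lay above the sum of the single differences. Zfp36 had -0.42 ± 0.05 (edgeR adjusted p = 8.77e-09), below 0 as with GSK2033. Nfkb2 (0.31 ± 0.052) and Relb (0.31 ± 0.065) were above 0, being lower with each compound alone and, with the combination, less so than the sum. Nfkbia, at 0.18 ± 0.059 (edgeR adjusted p = 0.0245), was not called without Vehicle replicate 1 or 3, 27HC replicate 1 or ICI replicate 4 (0.15 to 0.17). Rel, at -0.20 ± 0.07 (edgeR adjusted p = 0.0424), was not called in 14 of 21 fits without 1 library, those without Vehicle replicate 2, 3, 4, 5 or 6, 27HC replicate 2, 4 or 5, ICI replicate 1, 2 or 4 or combination replicate 2, 3 or 5 (-0.17 to -0.2), nor with no filter on low counts.

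**Figure D4:**
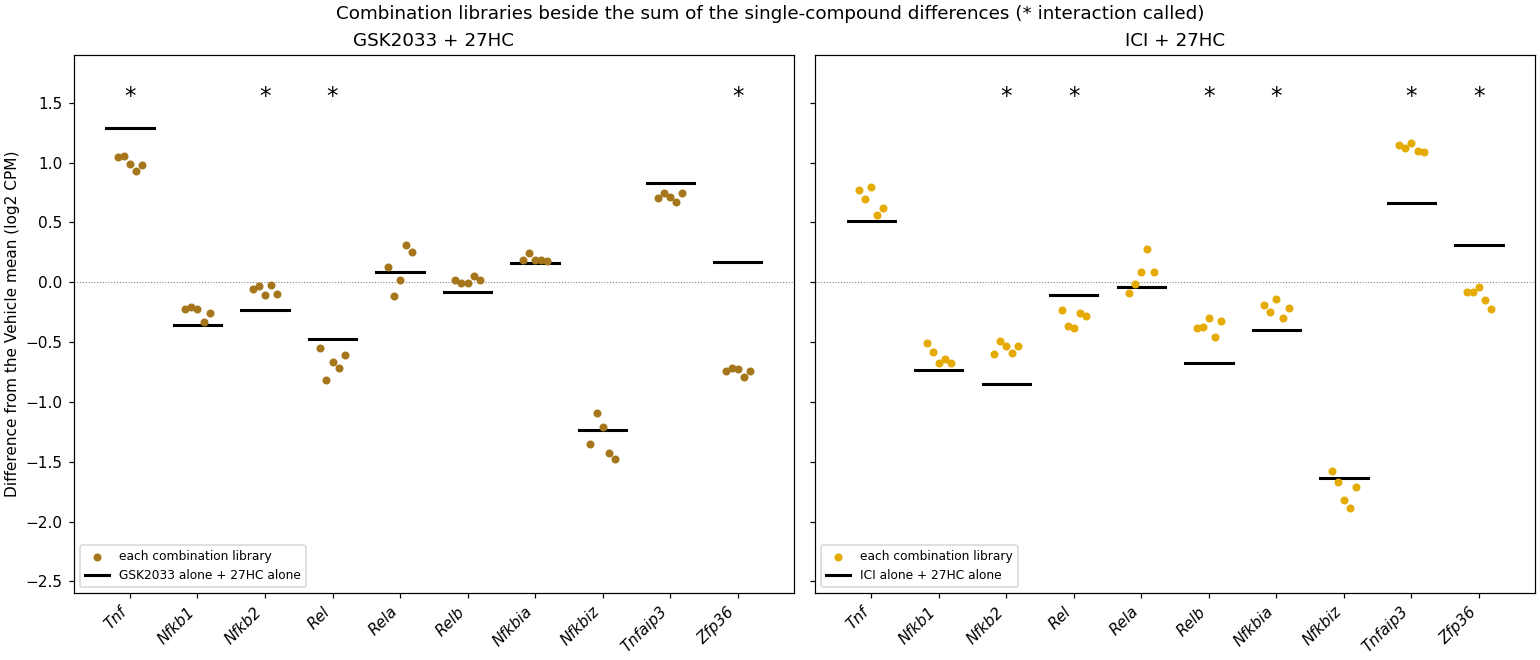
Difference from the Vehicle mean (log2 CPM, vertical axis) of each library with GSK2033 + 27HC (left) and ICI + 27HC (right) for the 10 genes; points are libraries, black bars are the sum of the mean differences of the single compounds, and asterisks mark called interactions. Zfp36 lies 0.91 below the bar with GSK2033 + 27HC, and Tnfaip3 lies above it with ICI + 27HC.

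In the wider pathway, known NF-kB target genes, a list of 36 cytokine, chemokine, adhesion and enzyme genes of which 34 were tested, were mostly lower with the LXR agonists and mostly higher with the LXR antagonist. With GW3965, 30 of 34 fell and 1 rose (median -1.37), with GSK2033 26 rose and 5 fell (median 0.74), and with 27HC 20 fell and 6 rose (median -0.44), where the medians over all genes tested lay within -0.01 to 0.01 and the shares called higher and lower were 23.1% and 21.1% with GW3965, 18.4% and 17.9% with GSK2033 and 20.3% and 20% with 27HC. GSK2033 + 27HC gave 21 higher and 10 lower (median 0.57), ICI + 27HC 9 and 19 (median -0.41), GW3965 plus the second compound 3 and 28 (median -1.38), ICI 7 and 13 (median -0.26), and E2 11 lower and 23 not called (median -0.2). Among the examples, Ccl4, a chemokine gene that is induced with Tnf, was higher by 1.82 ± 0.052 with GSK2033, 1.56 ± 0.052 with GSK2033 + 27HC and 0.8 ± 0.053 with ICI, and lower with E2, at -0.46 ± 0.056. Ccl5, another chemokine gene, was at -2.79 ± 0.05 with GW3965 and -1.42 ± 0.046 with GSK2033 + 27HC. Bcl2l1, a survival gene, went against the list with GW3965 at 0.96 ± 0.033. This list overlaps lists used in earlier work on these data, and describes the members' surroundings without independent support.

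The other IkB proteins and negative regulators (26 genes tested) split in most treatments. With GSK2033, 9 of the 26 rose and 3 fell, where 18.4% and 17.9% of all genes tested did, and with GW3965 5 rose and 14 fell, where 23.1% and 21.1% did. With GW3965 plus the second compound 3 rose and 15 fell, against 25.2% and 24.4% of all genes. With ICI + 27HC 8 rose and 9 fell, against 26.6% and 26.4%, a share near that of all genes. Nfkbie and Nfkbib, which encode further cytoplasmic IkB proteins, were higher with GSK2033 by 0.64 ± 0.05 and 0.61 ± 0.05, and Nfkbie was at -1.16 ± 0.054 with GW3965 plus the second compound. Irak3, which encodes a brake on Toll-like receptor signalling, fell with GW3965 (-2.13 ± 0.064) and with 27HC (-1.43 ± 0.06). Trib3, a stress-induced pseudokinase gene, rose with 27HC, GW3965, ICI and GSK2033 and reached 2.69 ± 0.051 with GSK2033 + 27HC, and fell with E2 (-0.24 ± 0.058).

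Signal transducers upstream of NF-kB (26 genes tested) had medians of -0.13 to 0.1 over the 8 treatments. Myd88, the adaptor of most Toll-like receptors, was called in each treatment: it rose by 0.19 ± 0.028 with GSK2033 and was lower in the other 7, at -0.45 ± 0.028 with 27HC, -0.66 ± 0.029 with GW3965, -0.12 ± 0.028 with E2 and -0.79 ± 0.029 with GW3965 plus the second compound. Map3k8, a kinase gene needed for TNF production in macrophages, fell in every treatment but E2, among them ICI + 27HC (-1.23 ± 0.073), GSK2033 + 27HC (-1.21 ± 0.073), 27HC (-0.74 ± 0.071) and GSK2033 (-0.56 ± 0.07). Among 16 genes of Tnf release and reception, Tnfrsf1b, the gene of the second TNF receptor, was at -0.6 ± 0.024 with GW3965, -0.48 ± 0.024 with 27HC and 0.43 ± 0.024 with GSK2033. In that list 8 rose and 3 fell with GSK2033 (18.4% and 17.9% of all genes), 3 rose and 9 fell with GW3965 (23.1% and 21.1%), and 1 rose and 9 fell with 27HC (20.3% and 20%).

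Among regulators of AU-rich mRNA (20 of 21 genes tested), Zfp36l1, the close relative of Zfp36, was at -1.35 ± 0.056 with GSK2033 + 27HC, -1.39 ± 0.056 with ICI + 27HC and -0.81 ± 0.054 with GSK2033, the 3 groups with the highest Tnf, and it also fell with GW3965 (-0.42 ± 0.054), the group with the lowest. Zfp36l2, another relative, was at -0.33 ± 0.026 with GSK2033 + 27HC and at -0.28 ± 0.026 with GW3965, where Tnf was lower. Dusp1, a phosphatase gene whose product restrains the kinases that inactivate tristetraprolin, rose by 0.53 ± 0.03 with 27HC and 0.93 ± 0.029 with ICI + 27HC. In the list of 20, 6 rose and 8 fell with GSK2033 + 27HC, where 24.1% and 26.4% of all genes tested did. With ICI + 27HC 4 rose and 9 fell, where 26.6% and 26.4% of all genes did, and with E2 all 20 were not called. Of 16 other ligands of the TNF superfamily, 10 were tested. Tnfsf9 rose by 0.97 ± 0.11 with GSK2033 and 1.64 ± 0.11 with GSK2033 + 27HC, and fell with GW3965 (-0.92 ± 0.12). Tnfsf10, the gene of TRAIL, which can trigger cell death, fell with 27HC (-1.71 ± 0.22) and with GW3965 (-2.51 ± 0.24). Of these 10, 5 rose and 3 fell with GSK2033 + 27HC (24.1% and 26.4% of all genes), and 2 rose and 4 fell with GW3965 (23.1% and 21.1%).

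**Figure D5:**
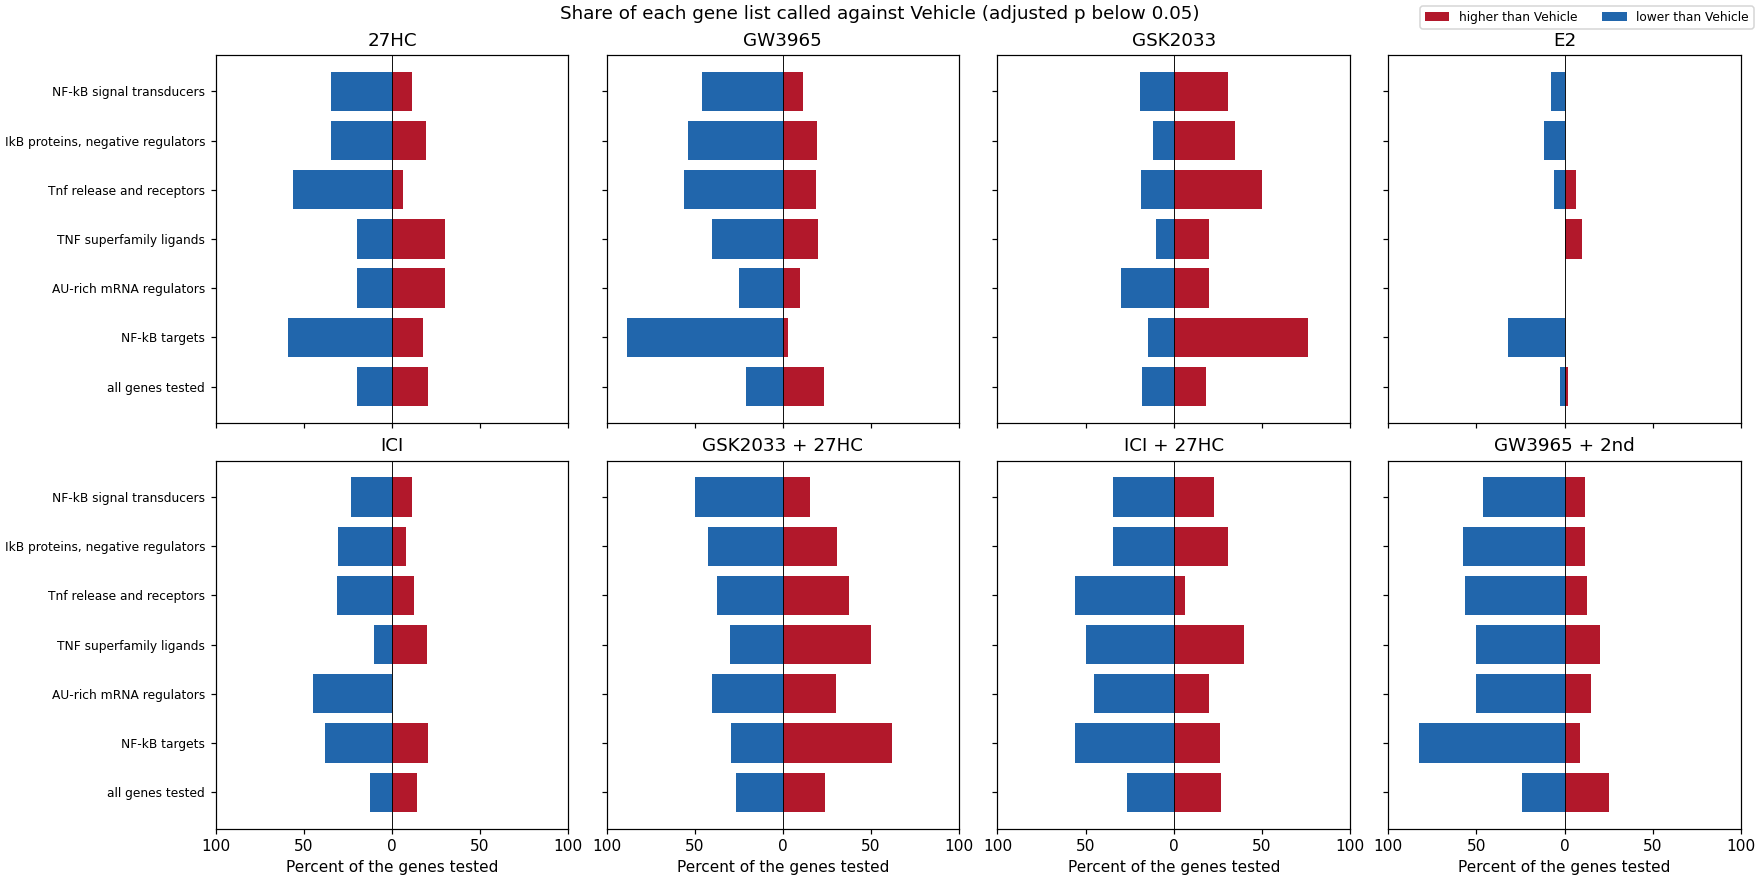
Percent of the tested genes of each list (rows) called higher (red, to the right) or lower (blue, to the left) than Vehicle in each treatment (panels), with all 13838 genes tested as the lowest row. NF-kB targets are mostly lower with GW3965 (30 of 34) and mostly higher with GSK2033 (26 of 34).

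The genes whose differences from Vehicle were most like those of each member were found among 11464 other genes with a mean of at least 1 CPM, by the root mean square difference over the 8 treatments in log2 units. For Tnf they were Raet1d (0.209), Spdl1 (0.211) and Lyst (0.215), and for Nfkbiz Itgal (0.165), Marco (0.197) and Pld4 (0.205). The nearest were Ifnar2 (0.054), Gpsm3 and Chd9 (0.068 each) for Rel, Ift57 (0.06) and Snx10 (0.095) for Nfkbia, and Ptprc (0.074), Fgf11 (0.085) and Pik3cg (0.091) for Nfkb1. Slc25a25 (0.088), P2ry2 (0.118) and Psmd8 (0.119) were nearest to Tnfaip3, and Slc31a1 (0.095), Ncf4 (0.099) and Zfp523 (0.107) to Nfkb2. Dgkh (0.098), Ust (0.105) and Psd (0.113) were nearest to Relb, and Taf4 (0.128), Sh3bp5 (0.129) and Evl (0.133) to Zfp36. Psd overlaps Nfkb2 on the opposite strand, and whether the counting used strand is not given in the sources used here, so its value is uncertain. Rela was left out, since none of its differences reached 0.5. Members were not candidates for each other.

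Among the members themselves, Nfkb2, Relb and Nfkbia moved in the same direction in the 6 treatments where all 3 were called, being lower with 27HC, GW3965, ICI, ICI + 27HC and GW3965 plus the second compound and higher with GSK2033. Tnf was higher where they were lower in 3 of these treatments, 27HC (0.24), ICI (0.27) and ICI + 27HC (0.69). It was called in the same direction as they were with GW3965 (-0.30), GW3965 plus the second compound (-0.17) and GSK2033 (1.04). Rel was lower in both GSK2033 groups, where Tnf and Nfkbia were higher. Nfkbiz was lower with GSK2033 + 27HC (-1.31), where Nfkbia was higher (0.2). The comparisons share the Vehicle libraries, so these directions are not separate observations.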

How the data were processed

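Polyadenylated RNA of 46 libraries was sequenced as single reads from a stranded kit, per the labels' protocols. The authors deposited estimated counts per gene. The submitters' processing notes name kallisto 0.44.0, bcl2fastq 2.20 and GRCm38; the gene-level step, any length correction and the use of strand are not given in the sources used here. The deposited estimated counts were rounded to whole numbers and tested with edgeR 4.0.16 (quasi-likelihood, robust, TMM scaling, filterByExpr) in 1 fit of all 46 libraries with 1 mean per group, in R 4.3.3, with Benjamini-Hochberg adjustment over 13838 genes and a threshold of 0.05. Levels are log2 CPM, counts scaled to the TMM-adjusted library size, with a prior count of 2 and depend on gene length, so genes were not compared by level. Every gene row was used, and 24243 of 24671 IDs had a symbol. Libraries of a group differed by more than counting noise in all 95 pairs (chi-square per degree of freedom of 3.91 to 12.2).

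The interaction is the combination minus both single compounds plus Vehicle. The procedure was tested on simulated data. Alternatives were DESeq2 1.42.0, its size factors, other filters, no robust setting, a replicate block, the groups compared alone, no mitochondrially encoded genes, and each library left out. The 10 members and the gene lists were chosen with earlier results of these data known. Genes named from a list were among the 3 with the lowest p of that list in at least 1 comparison, and all 10 members are reported. Some are also given in comparisons where they were not among those 3, as Zfp36l1 with GW3965 and Map3k8 with GW3965 and ICI. The 3 genes most like each member are named, except 1 that is not reported here. Marker lists of 8 cell types were summed per library; the osteoclast and mast cell lists summed to at most 53.8 and 11.5 CPM. Replicate numbers were not read as pairs of libraries (see the closing section).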

Additional observations from a re-analysis of the deposited data

Results flagged for a closer look

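Some libraries stood apart from the rest of their group. With 27HC, replicate 5 had 5.33 log2 CPM of Tnf, against 5.48 to 5.52 in the other 4 libraries. With GW3965 plus the second compound, replicate 3 had the highest Tnf, 5.29 against 4.96 to 5.05, and the highest Nfkbia, 7.11 against 6.87 to 6.88. Nfkbia was also high in replicate 2 of GSK2033 + 27HC, at 7.72 against 7.65 to 7.66 log2 CPM. Zfp36 was low in replicate 4 of E2, at 6.93 against 7.12 to 7.18 log2 CPM, and Tnfaip3 was high in Vehicle replicate 4, at 5.59 against 5.41 to 5.47 log2 CPM. These are 6 of the 90 sets of a gene and a group examined, and chance alone marks about 1 set in 20.

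The response to 27HC differed with GSK2033 present, by the interaction test, for Zfp36 (-0.91), Tnf (-0.28), Rel (-0.2) and Nfkb2 (0.17). With ICI present it differed for Tnfaip3 (0.47), Zfp36 (-0.42), Nfkb2 (0.31), Relb (0.31), Rel (-0.2) and Nfkbia (0.18), in log2 units.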

How the results depend on the processing

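Of 170 results (10 genes in 17 comparisons and interactions), 152 kept their side of the threshold under every alternative and leave-one-out fit, and in 0 of 3360 values did a called direction turn. DESeq2, and its size factors in edgeR, changed no call. With E2 against Vehicle, 2 members were called in place of 1 under the replicate block and in the fit to these groups alone, with Nfkbiz added, and 1 to 2 in the leave-one-out fits. For the interaction of GSK2033 with 27HC, 2 members were called in place of 4 with no filter on low counts, and 2 to 4 in the leave-one-out fits. With no filter on low counts 7 calls were lost. The fits to the groups compared alone lost 3 and gained 1. Leave-one-out fits lost 59 calls and gained 11, against 1930 that stayed. The cause of these changes was not tested.

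Over all genes tested, samples with the same replicate number deviated together little, if at all (correlations of -0.072 to 0.0998 over 180 pairs, median 0.0123). Pairs of other numbers had -0.136 to 0.105 (760 pairs, median -0.00322). For 12 of 46 libraries the mean correlation was highest with libraries of their own number, and how many chance would give was not worked out. The numbers were not read as pairs. Single members could still share a shift that these correlations over all genes do not show. Zfp36 was highest in replicate 1 with Vehicle, 27HC, E2, ICI, GW3965 and GSK2033, but not in the combinations. With E2, replicate 1 was highest for every member but Rel. With Vehicle, replicate 1 was highest for every member but Tnf, Nfkbia and Tnfaip3. Why these libraries were high was not tested. The replicate block lost 0 calls and gained 5, for Nfkbiz with E2 (-0.24), Zfp36 with GSK2033 (-0.09), Relb between 27HC and GW3965, Nfkb1 between GSK2033 + 27HC and 27HC, and Nfkb1 in the interaction with ICI. Depth did not limit detection of the 10 genes, which had at least 275 estimated counts in every library.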
